A study of Caenorhabditis elegans with 2 samples.

Results

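The Sm protein genes snr-1, snr-2, snr-3, snr-4, snr-5, snr-6 and snr-7 of Caenorhabditis elegans encode the ring of proteins that sits on the spliceosomal small nuclear RNAs (snRNAs). These 7 genes were taken by symbol from 19973 protein-coding genes on the nuclear chromosomes, and all 7 were matched. The RefSeq product names called 7 of 7 small nuclear ribonucleoproteins: snr-1 encodes SmD3, snr-2 SmB, snr-3 SmD1, snr-4 SmD2, snr-5 SmF, snr-6 SmE and snr-7 SmG. SNPC-3.4 is related to a subunit of SNAPc, the complex that activates snRNA transcription, and its binding had been profiled by chromatin immunoprecipitation and sequencing (ChIP-seq). The 2 samples were biological replicates 1 and 2 of strain YL497, a stable transgenic line in which SNPC-3.4 (T02C12.2) carries GFP-FLAG at its C terminus. Whole young adult hermaphrodites were used, the precipitation was with an antibody to GFP, and no contrasting condition was present, so no test between groups was possible. Both replicates came from 1 line, the labels do not name the promoter of the fusion, and signal from whole worms cannot be assigned to a tissue.

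SNAPc binds a proximal sequence element just upstream of snRNA genes and recruits RNA polymerase II or III to them. The snRNA transcripts U1, U2, U4 and U5 leave the nucleus, and the SMN complex then loads the Sm proteins onto a short uridine-rich Sm site in each. The ring is built from the pairs SmD1 with SmD2 and SmB with SmD3 and from the trio SmE, SmF and SmG. U6 instead carries a ring of the related LSm proteins. In worms the spliced leader RNAs carry an Sm site too.

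The sequences at the snr-4 peak are shown because that peak, the highest at any Sm gene, lies at a U4 snRNA gene. Coordinates are on ce11, the build of the peak lists. The first line runs from 50 bp before the summit into the first 25 bases of the U4 gene C52E4.8. It covers chrV:11980023-11980142 (plus strand), and capitals mark the bases of the U4 gene. The second is the whole 144-base U4 gene (chrV:11980118-11980261, plus strand), where the capitals mark the letters ATTTTTG, bases 118 to 124, which match the form of an Sm site. The SmD2 protein made from snr-4 is part of the ring that binds such a site in the U4 RNA.
C52E4.8 upstream: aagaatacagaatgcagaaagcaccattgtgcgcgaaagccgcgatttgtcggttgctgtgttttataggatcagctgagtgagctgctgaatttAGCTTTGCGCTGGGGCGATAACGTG
C52E4.8: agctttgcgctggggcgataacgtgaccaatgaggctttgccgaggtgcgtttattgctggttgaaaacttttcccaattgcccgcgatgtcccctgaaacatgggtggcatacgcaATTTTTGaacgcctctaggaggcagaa

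Windows of 101 bp centred on the summit are shown for 4 further Sm genes. They set peaks with and without a searched sequence word side by side. The windows are chrIV:17087619-17087719 (plus strand) for snr-1, chrII:6489946-6490046 (minus strand) for snr-3, chrIII:12429761-12429861 (minus strand) for snr-6 and chrIII:7861638-7861738 (plus strand) for snr-5, each read on the strand of the gene. Capitals mark any of 10 words of 8 bases listed further on.
snr-1: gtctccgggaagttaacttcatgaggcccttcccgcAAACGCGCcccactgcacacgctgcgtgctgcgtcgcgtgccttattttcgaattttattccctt
snr-3: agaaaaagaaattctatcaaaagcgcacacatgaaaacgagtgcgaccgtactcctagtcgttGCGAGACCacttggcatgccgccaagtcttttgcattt
snr-6: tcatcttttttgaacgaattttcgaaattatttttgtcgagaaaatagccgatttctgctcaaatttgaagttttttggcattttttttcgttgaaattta
snr-5: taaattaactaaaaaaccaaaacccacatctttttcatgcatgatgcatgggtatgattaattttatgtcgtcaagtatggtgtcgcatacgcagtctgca

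SNPC-3.4 had a peak near 6 of the 7 Sm genes. A gene was called bound when a summit of the authors' thresholded list, 2101 regions, lay within 500 bp of its annotated 5' end. Among all protein-coding genes 7.04% met this rule. The exception was snr-5, whose nearest candidate lay below the threshold. The signal quoted throughout is the authors' own value for a region, on a scale that is not stated, and serves to rank regions of the same list. No read counts accompany the regions, so depth is unknown. With a window of 250 bp 3 Sm genes were bound, against 4.50% of all protein-coding genes. With the stronger 1050 regions 2 were bound, against 3.64%. With replicate 1 alone there were 3, against 6.19%, and with replicate 2 alone 5, against 7.01%.

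**Figure D1:**
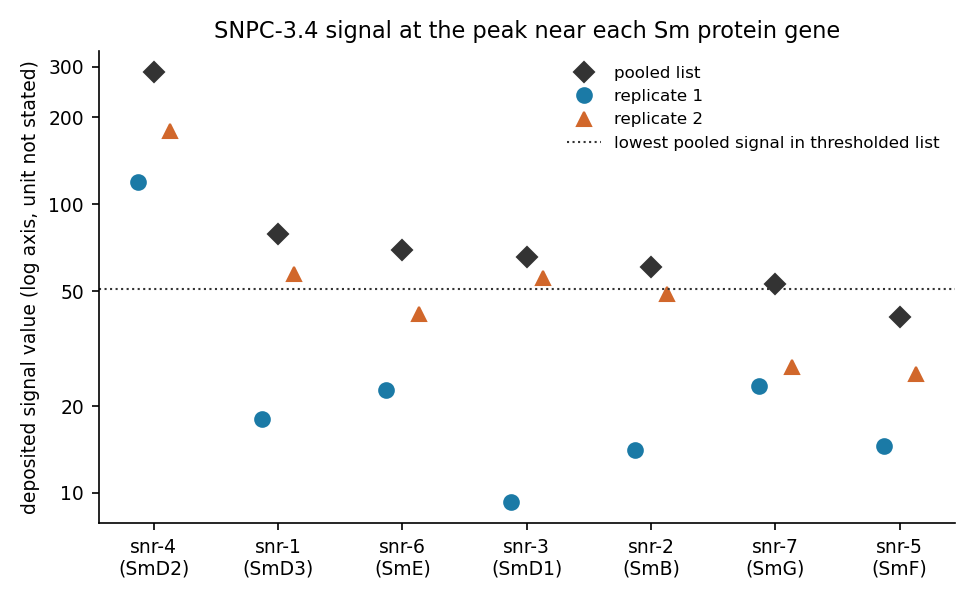
Deposited signal of the peak at each Sm gene (log axis) in the pooled list, replicate 1 and replicate 2, with the lowest pooled signal of the thresholded list, 50.8, as a dotted line. The pooled values fall from 287 at snr-4 to 40.5 at snr-5, and the replicates lie close together at snr-7 and far apart at snr-3.

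The pair SmD1 and SmD2 included the strongest peak and the one whose replicates differed most in ratio. The gene snr-4 (V, 11978508 to 11979723, minus strand) had a pooled signal of 287, place 61 of 30000 candidates. At that peak replicate 1 had a signal of 120 and replicate 2 of 180, both at place 60 of their lists (mean 150 ± 42.7, SD, n = 2). This was the highest value among the 7 genes in both replicates.

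The snr-4 summit lay 350 bp upstream of snr-4 and only 45 bp upstream of C52E4.8, the U4 gene, which runs in the opposite direction and starts 395 bp away. It also fell inside C52E4.14, an unclassified non-coding RNA gene on the strand of the U4 gene. An snRNA 5' end within 500 bp of the summit was found at 1 of the 6 bound Sm genes and at 0.996% of all bound protein-coding genes. No region nearer to the snr-4 5' end passed the threshold. The nearest candidate was 187 bp inside the gene, with a pooled signal of 34.9 at place 4877. It had a signal of 26.4 in replicate 1, place 1344, whereas replicate 2 had no candidate summit in the first 1000 bp of snr-4. Taking the region nearest to the 5' end in each replicate list therefore gives snr-4 a mean of 103 ± 109 (SD, n = 2), over 2 different regions.

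A second thresholded region (11980127 to 11980426) covered most of the U4 gene, with its summit 554 bp upstream of snr-4 and just past the 3' end of the U4 gene. Its pooled signal was 107, place 437, with 49.3 in replicate 1 and 36.6 in replicate 2. Of the 270 words of 31 bases in the main snr-4 region, 70.7% occurred once in the genome. All 165 words that end before the U4 gene were unique, so the repeats lie in words that reach into the snRNA sequence.

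The other gene of the pair, snr-3 (II, 6488830 to 6489761, minus strand), had a pooled signal of 65.9, place 1236. Its summit lay 235 bp before the gene. Replicate 2 had a signal of 55.7 at place 716, but replicate 1 only 9.32 at place 22980 (mean 32.5 ± 32.8, SD, n = 2). The ratio of replicate 2 to replicate 1 was 5.98, higher than at 99.5% of the 1083 promoter peaks with a match in both replicates, where the median was 1.71. The 5' end of rsp-5, which encodes an SR family splicing factor and is transcribed away from snr-3, was nearer to the summit, at 169 bp.

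Within the trio SmE, SmF and SmG the pooled signals were 69.7, 40.5 and 52.8, and only SmF fell below the threshold. The gene snr-6 (III, 12429172 to 12429629, minus strand) had a pooled signal of 69.7, place 1122, with the summit 182 bp upstream. Replicate 1 had 22.7 at place 1885 and replicate 2 had 41.7 at place 1303 (mean 32.2 ± 13.4, SD, n = 2). It was the only bound Sm gene with no other annotated 5' end within 500 bp of its summit. The nearest divergent gene, Y49E10.16, started 698 bp from it.

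The gene snr-7 (I, 2727014 to 2727545, plus strand) lay just inside the threshold, with a pooled signal of 52.8 at place 1944. Its replicates were the closest in raw signal, with 23.4 in replicate 1 and 27.2 in replicate 2 (mean 25.3 ± 2.73, SD, n = 2). The ratio of replicate 2 to replicate 1, 1.17, was below the median of 1.71 over promoter peaks, 18.8% of which had a lower ratio. The 2 signals stood at places 1759 and 3018, since values in replicate 2 were mostly higher. The summit was 213 bp upstream of snr-7 and 77 bp upstream of the divergent gene Y71F9B.6.

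The gene snr-5 (III, 7862070 to 7862574, plus strand) was the one outside the threshold. Its candidate summit, 382 bp upstream, had a pooled signal of 40.5 at place 3344, against 50.8 for the lowest region kept. Replicate 1 had 14.6 at place 6808, 361 bp upstream. In replicate 2 the nearest region was 513 bp upstream, with 25.9 at place 3385, so it fell outside the window (mean of both regions 20.2 ± 8.01, SD, n = 2). With candidates below the threshold included, all 7 Sm genes had a summit within 500 bp, as did 37.7% of protein-coding genes.

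The pair SmB and SmD3 rested mainly on replicate 2. The gene snr-1 (IV, 17088049 to 17088946, plus strand) had the second highest pooled signal, 78.9 at place 881, with the summit 380 bp upstream. At this peak replicate 1 had 18.1 at place 3489 and replicate 2 had 57.5 at place 656 (mean 37.8 ± 27.8, SD, n = 2). In replicate 2 the region nearest to the 5' end was another one, 112 bp inside the gene, with a signal of 29.6, which gives a mean of 23.8 ± 8.12 (SD, n = 2). The 5' end of snx-13, a sorting nexin gene transcribed away from snr-1, was 231 bp from the summit. The gene snr-2 (I, 13339397 to 13340224, plus strand) had a pooled signal of 60.9 at place 1459. Replicate 1 had 14.1 at place 7478 and replicate 2 had 48.9 at place 932 (mean 31.5 ± 24.6, SD, n = 2). Its summit lay 391 bp upstream of snr-2 and 75 bp upstream of the divergent gene W08E3.4.

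**Figure D2:**
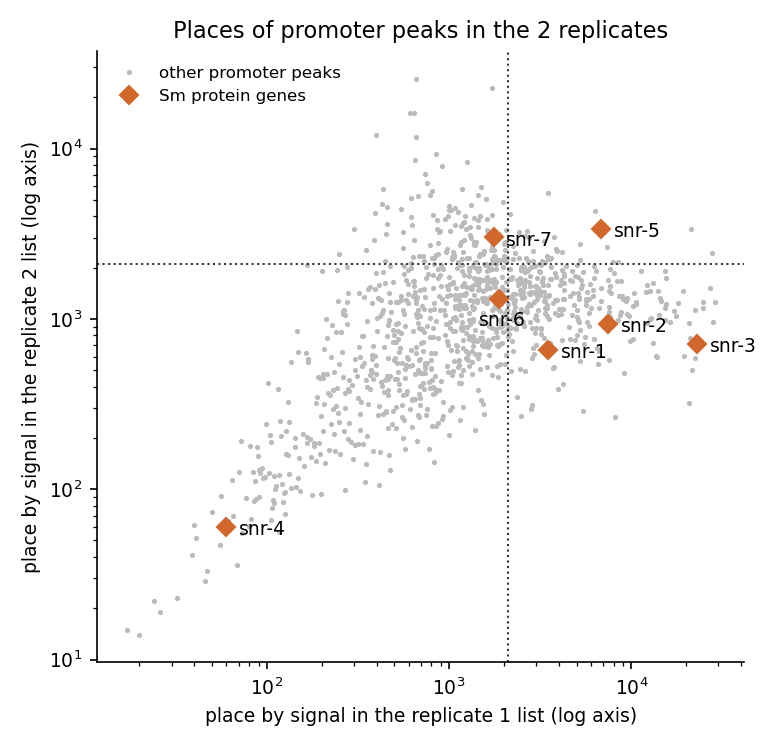
Place by signal in the replicate 1 list against the replicate 2 list (both log axes) for protein-coding promoter peaks (grey) and the 7 Sm genes (orange), with dotted lines at place 2101. The snr-4 peak stands at place 60 in both, whereas the bound genes snr-1, snr-2 and snr-3 lie right of the vertical line, outside the first 2101 regions of replicate 1.

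The order of the Sm genes was not kept between replicates beyond snr-4. In replicate 1 snr-4 was followed by snr-7, snr-6, snr-1, snr-5, snr-2 and snr-3. In replicate 2 it was followed by snr-1, snr-3, snr-2, snr-6, snr-7 and snr-5. By the mean of the replicates at the peak, snr-4 (150) exceeded the next gene, snr-1 (37.8), by 112, more than the larger of their SDs. Every later step, through snr-3 (32.5), snr-6 (32.2), snr-2 (31.5), snr-7 (25.3) and snr-5 (20.2), was smaller than the larger SD of the genes it joined. These SDs also hold the general difference between the replicate lists, a median ratio of 1.71 over promoter peaks. They therefore do not measure replicate variation alone. Among the 2101 regions of highest signal, 3 Sm genes had a summit within 500 bp in replicate 1 (snr-4, snr-6 and snr-7), against 6.19% of protein-coding genes. In replicate 2 there were 5 (all but snr-5 and snr-7), against 7.01%. Only snr-4 and snr-6 met the rule in both, 2 of 7 against 4.17%. The part of depth in the difference between replicates was not tested.

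**Figure D3:**
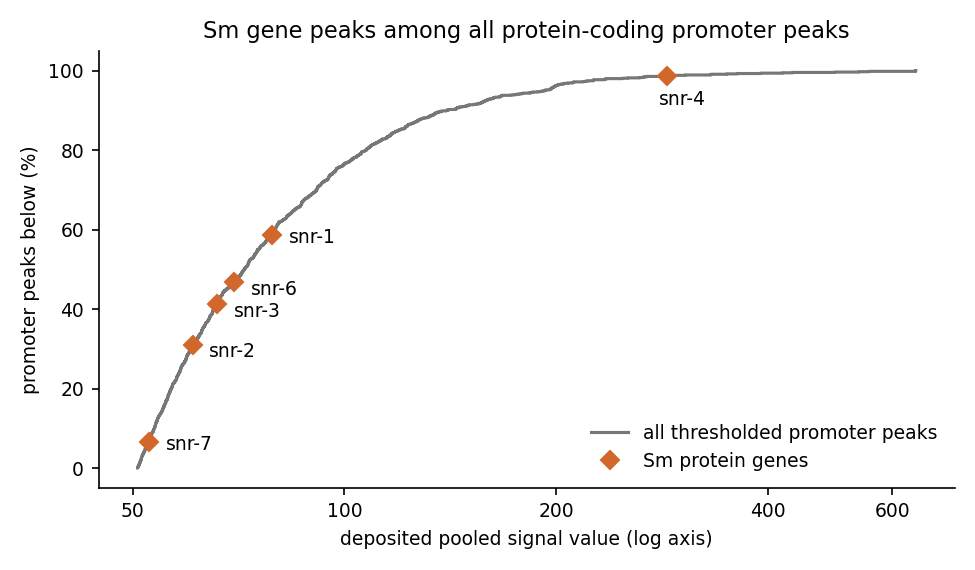
Cumulative percentage of the 1095 thresholded promoter peaks by pooled signal (log axis), with the 6 bound Sm genes as orange diamonds. The snr-4 peak is above 98.6% of promoter peaks, and the other 5 lie between 6.67% and 58.7%.

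Peak height at Sm genes was otherwise ordinary for a bound promoter. The median pooled signal of the 6 bound Sm genes was 67.8, against 72.0 over all 1095 promoter peaks. Besides snr-4, which ranked 15 among them, only snr-1 was above that median, at place 452. The others held places 583 (snr-6), 643 (snr-3), 755 (snr-2) and 1022 (snr-7).

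Summits at Sm genes lay upstream, as at most bound genes, and mostly between divergent genes. All 6 bound genes had the summit upstream of the 5' end, which is near the 86.3% of all bound protein-coding genes. The median position was 292.5 bp upstream, against 174 bp for all bound genes. Both medians rest on annotated 5' ends, which trans-splicing makes inexact in this species. The Sm median was 185 bp upstream with replicate 1 alone, over 3 genes, and 352 bp with replicate 2 alone, over 5. The replicate 1 value takes snr-4 at its nearest region, 187 bp inside the gene, and not at its peak 341 bp upstream. At 4 of the 6 the summit was also within 500 bp of another protein-coding 5' end (snr-1, snr-2, snr-3 and snr-7), against 44.0% of all bound genes. At the same 4 genes the other 5' end was the nearer one, against 22.0% of all bound genes. With 6 genes and no test, neither count sets the Sm genes apart from bound genes in general. With the U4 gene at snr-4, 5 of 6 bound Sm genes had another annotated gene start nearer to the summit than their own. Which of the neighbours a peak belongs to was not tested.

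**Figure D4:**
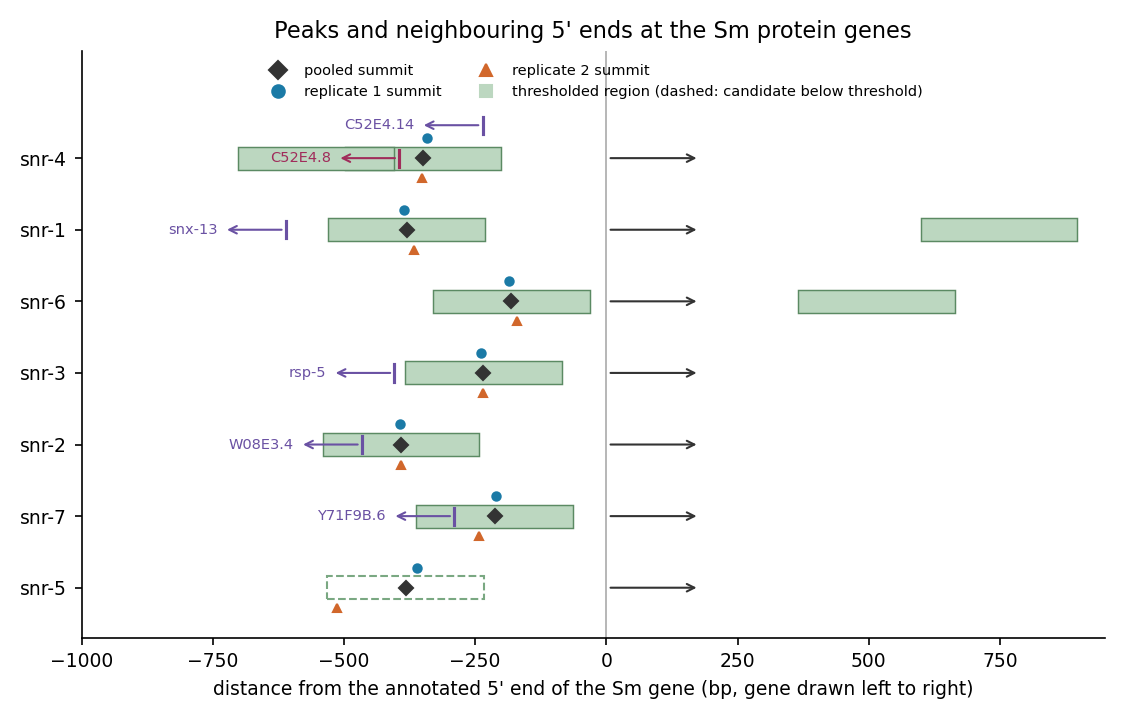
Regions and summits at the 7 Sm genes, drawn from left to right along each gene, by distance from its annotated 5' end in bp. Green boxes are thresholded regions, purple and red arrows are other genes whose 5' end lies within 500 bp of the summit, and all 7 summits lie left of 0, from 182 bp (snr-6) to 391 bp (snr-2) upstream.

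Further thresholded regions lay within 1000 bp of snr-1 and snr-6 and were singled out after their values were seen. One was 749 bp inside snr-1, in an exon, with a pooled signal of 56.1. Replicate 1 had 22.9 there, above the 18.1 of the snr-1 promoter peak. Replicate 2 had 31.6, below the 57.5 of that peak. The other was 514 bp downstream of the snr-6 5' end, in an exon of pie-1, the germline regulator gene that converges on snr-6, with 62.5. Its pooled value was close to the 69.7 of the snr-6 promoter peak. In replicates 1 and 2 it had 22.9 and 28.8, against 22.7 and 41.7 at the promoter peak.

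Words of 8 bases set some Sm peaks apart from others. The 10 words searched, on both strands, were GCGAGACC, AAAGGCGC, AAACGCGC, GTACGGTA, CGAGACCC, AAGGCGCA, GCCTTTAA, GCAAACAC, CGCCTTTA and GCGCCAGC, and several overlap one another. They had earlier been found at summits of this same experiment, so their presence here is a description. At least 1 lay in the 101-bp window around the summit at 4 of the 6 bound Sm genes, in 22.7% of the windows at 2075 nuclear summits and in 3.69% of windows centred 250 bp upstream of all protein-coding genes. The snr-3 window held GCGAGACC (6.22% of summits, 0.686% of promoter windows) and the snr-1 window AAACGCGC (3.52% and 0.496%). At snr-2 there were 4 overlapping words, AAAGGCGC among them (5.59% and 0.831%), and at snr-7 GCAAACAC (4.34% and 0.696%). No word was found at more than 1 Sm gene. The windows of snr-4, snr-6 and the candidate at snr-5 held none of the 10. Base composition of these windows varied as well, from 26.7% G and C at snr-6 to 55.4% at snr-1.

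Other genes of the snRNP pathway were bound to different extents, as counts beside the 7.04% of all protein-coding genes. Of 8 LSm genes 2 were bound: lsm-6, with a pooled signal of 74.5, and lsm-8, with 53.8. Both encode subunits of the ring on U6, and 1 was bound with replicate 1 alone, against 6.19% of all protein-coding genes. Of 19 genes listed as encoding snRNP-specific proteins, 1 was bound, or 5.26%, which is near the share of all protein-coding genes. It was prp-8, which encodes the central protein of the U5 snRNP, with 56.4. None of the 19 was bound with a 250 bp window, against 4.50% of all protein-coding genes. With replicate 1 alone 2 were, against 6.19%. A further 16 of these 19 had a candidate below the threshold within 500 bp, as did 5 of the 8 LSm genes. Candidates of any strength were thus present at 17 of 19 and 7 of 8, against 37.7% of all protein-coding genes. Those below the threshold ran from place 2316 to place 23917 of the pooled list, which by its name also holds background.

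Among 8 genes for assembly and capping factors, 4 were bound, against 7.04% of all protein-coding genes. A further 3 had a candidate below the threshold, at places from 9325 to 27483. Candidates of any strength were thus present at 7 of 8, against 37.7%. The gene smn-1, for the SMN protein that loads Sm rings, had a pooled signal of 128 at place 275, with 54.0 in replicate 1 and 71.2 in replicate 2 (mean 62.6 ± 12.1, SD, n = 2). Its summit, 188 bp upstream of smn-1, was nearer to the 5' ends of 2 other genes. It lay 28 bp upstream of klp-16, a kinesin gene, and 117 bp past the 5' end of the microRNA gene mir-4932. Without peaks at small RNA genes 3 of the 8 assembly genes were bound, against 6.56% of all protein-coding genes. The SMN-related gene smr-1 had 100.3 at place 504 (36.4 and 66.4 in replicates 1 and 2). The gene prmt-5, for an arginine methyltransferase known in human cells to modify Sm proteins, had 82.3 (49.1 and 40.0). The cap-binding gene ncbp-1 had 52.6 (15.4 and 39.6), at a summit nearer to the 5' end of its neighbour rbx-2. The first 3 were among the 2101 highest regions of both replicates, which ncbp-1 was not.

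**Figure D5:**
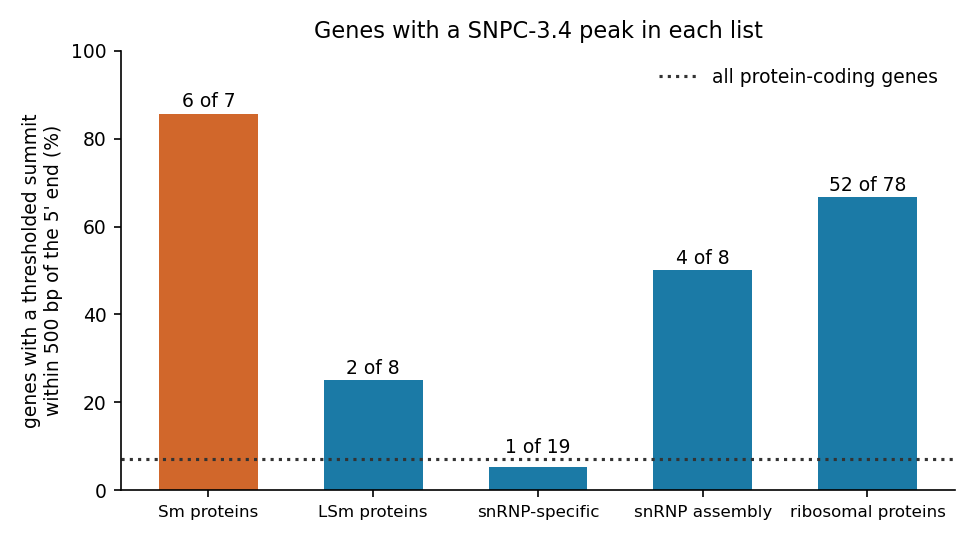
Percentage of genes in each list with a thresholded summit within 500 bp of the 5' end, with counts above the bars and the share of all protein-coding genes, 7.04%, as a dotted line. The Sm bar stands at 6 of 7 and the bar of snRNP-specific proteins at 1 of 19.

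Ribosomal protein genes, the other housekeeping list set beside them, were bound at 52 of 78, against 7.04% of all protein-coding genes. With a 250 bp window 14 were bound, against 4.50%. The 52 had a median pooled signal of 98.3 and a median summit 283.5 bp upstream. Their summits had an snRNA 5' end within 500 bp at 0 of the 52, which is near the 0.996% of all bound genes.

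The promoter peaks most like each bound Sm gene were found by distance in log2 signal over the 2 replicates. With only 2 values per peak among 1083, close neighbours occur readily. The nearest to snr-4 was the peak shared by rib-2, an exostosin family gene, and the tubulin gene tbb-1 (119 and 176, distance 0.033), and the nearest to snr-6 and snr-7 were iff-1 (22.3 and 41.3, distance 0.031) and iff-2 (23.4 and 27.4, distance 0.011), genes for translation initiation factor eIF5A. For snr-1, snr-2 and snr-3 they were R148.3, chp-1 and C30G12.6, at distances of 0.032, 0.033 and 0.034.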

How the data were processed

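Per the labels, the 2 biological replicates of the only group were SNPC-3.4 GFP-FLAG worms, and chromatin was sheared by sonication. The authors deposited 30000 candidate regions per list on ce11, each with a signal value, for each replicate and for the pool, and a list thresholded by irreproducible discovery rate. Per the deposited notes, the lists were called against a control, which was not analysed here, with the caller and aligner not given in the sources used here. A check found the thresholded list to be the first 2101 of the pooled regions sorted by signal. The replicates feed that list and are not independent of it. The ce10 lists were not used.

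Genes came from Ensembl release 115 (WBcel235, which is ce11), with RefSeq symbols for 46881 of 46926 genes by WormBase identifier. For the U4 gene, RefSeq gives C52E4.8 and Ensembl another symbol. Sequences came from the RefSeq WBcel235 genome. Positions are 1-based. Summits are region start plus the deposited offset. Replicate regions were taken nearest to the 5' end and, as a choice made after the data were seen, nearest to the pooled summit within 250 bp. Shares of genes were counted, and no test was run. The assignment was checked on planted summits. Small RNA genes were snRNA, snoRNA, tRNA, miRNA and rRNA entries. Members, lists and words were chosen with earlier results of these data known. Named are all members, genes whose 5' end shares their summit, bound genes of the 3 snRNP lists, and for each bound member the promoter peak nearest in signal. Python 3.11.15, NumPy 2.4.6, pandas 2.3.3 and matplotlib 3.10.9 were used.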

Additional observations from a re-analysis of the deposited data

How the results depend on the processing

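Of 55 alternative values for counts, shares and positions, 38 stayed within 1.5 times the reported count or share, or within the replicate spread of 9.43 bp for a position, and 17 did not. With a 250 bp window, bound genes numbered 3 of 7 Sm, 0 of 19 snRNP-specific and 14 of 78 ribosomal, the share of all protein-coding genes was 4.50% and the median Sm summit was at -213 bp. With the 1050 strongest regions they numbered 2 Sm (snr-1 and snr-4), 1 LSm, 0 snRNP-specific and 34 ribosomal, the share was 3.64% and the median was at -365 bp. With either replicate left out, counts ran from 3 to 5 for Sm genes, from 1 to 2 for LSm and from 1 to 2 for snRNP-specific genes. The median Sm summit then ran from -352 to -185 bp. The share of all protein-coding genes was 6.19% with replicate 1 alone and 7.01% with replicate 2 alone. Without peaks at small RNA genes 5 Sm genes were bound, since snr-4 dropped out, and the median was at -235 bp. The share of all protein-coding genes was then 6.56%. Fewer regions or a narrower window lower counts by construction, and beyond that the cause was not tested. A 1000 bp window, overlap of regions instead of summits and 5' ends of any transcript each left 6 Sm genes bound. The shares of all protein-coding genes were 9.27%, 7.86% and 7.43% in that order, and overlap gives no summit position. Matching replicate regions to the pooled summit, chosen after seeing the data, raised the mean signal of snr-1 from 23.8 to 37.8 and that of snr-4 from 103 to 150. The lists hold no read counts, so an unbound gene such as snr-5 may lie below what these libraries could show.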
